A study of Mus musculus with 6 samples.

Results

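The cytosolic ribosomal protein genes are described here in heart muscle of mice after tail-suspension and of sham mice. They were taken as all non-control probes whose gene name was Rpl, Rps or Rplp followed by a number (with a few permitted suffix letters and with the Rps6k kinases left out), and each gene was represented by its probe of highest mean log2 intensity over the 6 arrays. This gave 82 genes of the 36163 gene names on the array, 51 of the large and 31 of the small ribosomal subunit, covered by 179 probes. The animals were male C57BL/6 mice that were 10 weeks old when the experiment began, while another label gives an age of 11 weeks. The tail-suspension group was held by the tail for 28 days, a model that unloads the hindlimbs and is used to simulate microgravity, and the sham group was kept in the same room on the same feed. No transgene, deletion or drug is named for either group. Total RNA of cardiac muscle was hybridised to 1-colour Agilent arrays, 3 sham and 3 tail-suspension, and the labels do not tell whether animals were pooled.

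A ribosome is the machine that translates messenger RNA into protein. The small subunit decodes the message while the large subunit joins amino acids. The messages for nearly all of these proteins begin with a short stretch of pyrimidines (C and T in DNA), called a 5′ terminal oligopyrimidine or TOP sequence, through which mTORC1, a growth-sensing kinase complex, controls their translation together. In heart, the rate of ribosome production is known to follow growth and atrophy of the muscle. A few ribosomal proteins have paralogues, near copies encoded by a separate gene, and Rpl3l is the copy of Rpl3 found in heart and skeletal muscle.

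The sequences at the gene starts were searched for such a pyrimidine run. RefSeq promoters (GRCm38.p6) were available for 61 of the 82 genes, and 73 promoters with 250 bases before and 50 after an annotated start were searched for an unbroken run of at least 6 C or T bases that began with a C between 10 bases before and 20 bases after the start. Such a run was found in 53.4% of the members' promoters and in 24.6% of all 32851 promoters in the table. On the opposite strand, the same search gave 12.3% of the members' promoters and 28.9% of all. A match describes the letters in this window only. The 30 bases around the start are given for members that rose (Rps9, Rps27, Rps18, Rpl27a and the paralogue Rpl22l1), for Rpl35, whose level hardly differed, and for Rps15 and the paralogue Rpl3l, where the search found no run. They are written 5′ to 3′ on the gene's own strand, and capitals mark the pyrimidine run.
Rps9 (chr7:3704031-3704060, plus strand): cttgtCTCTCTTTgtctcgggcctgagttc
Rps27 (chr3:90213629-90213658, minus strand): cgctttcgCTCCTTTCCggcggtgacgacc
Rps18 (chr17:33955646-33955675, minus strand): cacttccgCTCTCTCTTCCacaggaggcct
Rpl27a (chr7:109519185-109519214, plus strand): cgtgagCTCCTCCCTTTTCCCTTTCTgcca
Rpl22l1 (chr3:28805498-28805527, plus strand): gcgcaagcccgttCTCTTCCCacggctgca
Rpl35 (chr2:39005112-39005141, minus strand): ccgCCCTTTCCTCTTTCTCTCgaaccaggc
Rps15 (chr10:80292421-80292450, plus strand): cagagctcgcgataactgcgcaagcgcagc
Rpl3l, the first of its annotated starts (chr17:24727816-24727845, plus strand): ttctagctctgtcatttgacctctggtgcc
The runs sat within a few bases of the annotated start in Rps9, Rps27, Rps18 and Rpl27a. RefSeq annotates a second start for Rpl3l, in which no run was found either.

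On each array, 50.9% to 53.4% of the probes were well above background, and no spot was saturated. Values are log2 intensities minus the array's 75th percentile (a log2 level), and levels were compared only between arrays of the same probe. Arrays of 1 group correlated at 0.991 to 0.996 and arrays of different groups at 0.978 to 0.984 over the tested probes. All 6 arrays lay on 1 slide and came from 1 scan, with the sham arrays and tail-suspension 1 in the first row of the slide and tail-suspension 2 and 3 in the second. The 8 cardiomyocyte markers were above background on all arrays, and their summed linear level was 4132 to 4474 times the 75th percentile in sham and 4035 to 4116 times in tail-suspension hearts. Of 7 tested neutrophil markers, 5 rose, and the median log2 fold change was 4.62. All 7 had tail-suspension arrays entirely above sham arrays (22.1% of all probes had). The sum over that list, in which the brightest markers weigh most, was 143.9 to 171.9 in sham and 223.1 to 254.2 in tail-suspension hearts. All 7 tested erythroid markers had a fold change below 0, 6 of them at an unadjusted p under 0.05 and 0 after limma's adjustment, and their sum was 1089 to 1466 in sham and 324.7 to 897.1 in tail-suspension hearts. Of 8 endothelial markers 4 fell and 1 rose (sums of 167.8 to 179.6 against 150.6 to 164.7), and of 8 fibroblast markers 1 fell (280.8 to 298 against 278.6 to 351). Of 5 tested lymphocyte markers 2 fell (3.17 to 3.31 against 2.37 to 2.83), with Cd3g and Cd8a above background on no array. Of 7 tested macrophage markers 0 passed after adjustment and 2 were higher at an unadjusted p under 0.05 (30.5 to 40.6 against 34.5 to 54.2). Of all tested probes, 10.8% rose and 9.57% fell. The part of these other cells in the ribosomal protein values was not tested.

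The ribosomal protein genes were higher in tail-suspended hearts, by a small amount and nearly all together. Of the 82 genes, 80 were tested, and all 80 were well above background on all 6 arrays. The fold change was above 0 in 75 of the 80 (93.8%, against 49.5% of all 28032 tested probes), and the median was a log2 fold change of 0.21, or 1.16-fold, with quartiles of 0.14 and 0.29, beside a median of -0.0049 over all tested probes. The 3 tail-suspension arrays lay entirely above the 3 sham arrays in 65 of the 80 genes (81.2%, against 22.1% of all probes). They lay entirely below them in 2 genes, against 21.9% of all probes, and overlapped in the other 13. In whole tissue, fewer cells of a type and less RNA per cell cannot be told apart.

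Fewer genes passed the test of a single probe. With limma and Benjamini-Hochberg adjustment over all probes, 19 of the 80 genes rose (23.8%, against a background of 10.8% of probes) and 0 fell (background 9.57%), or 19 of 80 in either direction (background 20.4%). At an unadjusted p under 0.05, 42 were higher (background 19.3%) and 2 were lower, and the methods' t-test with the same adjustment gave 25 higher and 0 lower (5.47% and 4.46% of all probes). Only 1 member, Rpl3l, reached a difference of 1.5-fold. The count of 19 changed when single arrays were left out and with the scaling. It was 0 without sham 1, without sham 2, without tail-suspension 1 or without tail-suspension 3, 4 without sham 3 and 16 without tail-suspension 2. Of all probes, 5.07%, 3.6%, 5.54% and 4.1% rose in the settings that gave 0, 7.8% without sham 3 and 10.3% without tail-suspension 2. Where the count was 0 without an array, 26 to 30 members were higher at an unadjusted p under 0.05. With each array centred on its median in place of its 75th percentile, 0 members rose and 1 fell. Of all probes, 6.46% rose and 9.81% fell there. At an unadjusted p under 0.05, 8 members were higher, and the median over all tested probes moved to -0.08. Under that centring the members' median was 0.14, which is 0.22 above the median of all probes. Both scalings subtract 1 value per array from all probes, so this distance could hardly differ from that with the 75th percentile.

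**Figure D1:**
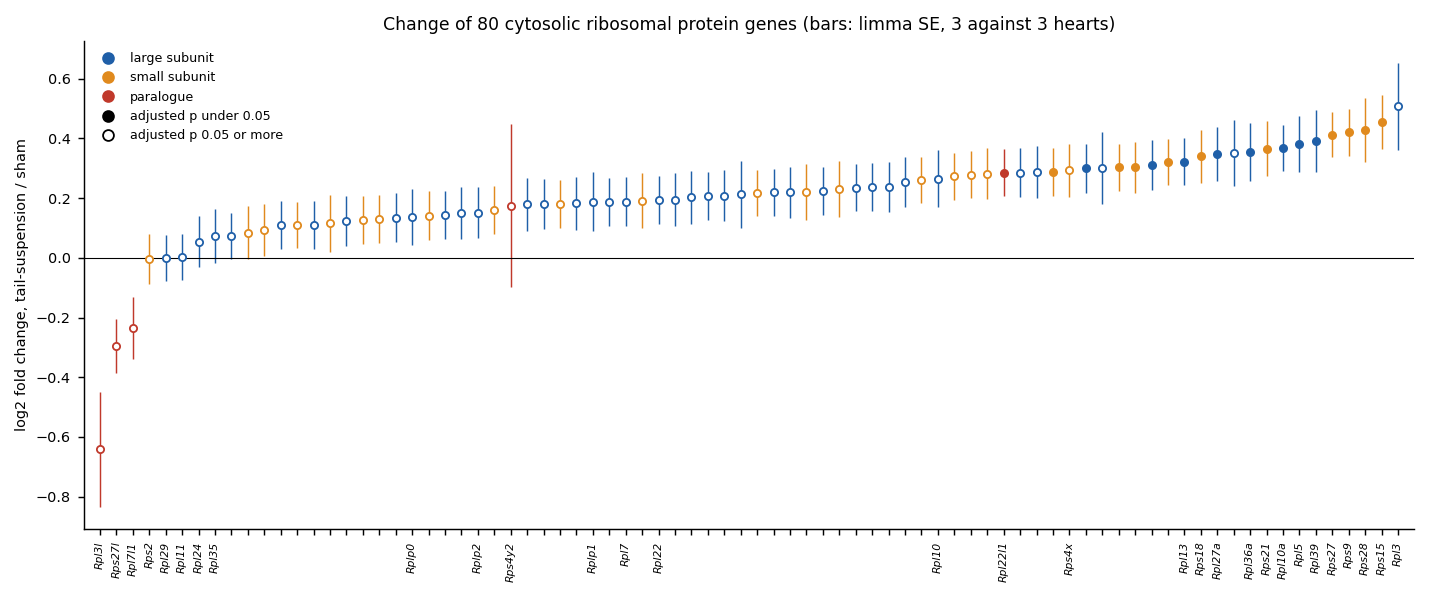
Log2 fold change (tail-suspension over sham) of each of the 80 tested ribosomal protein genes, in order of size, with limma standard errors as bars. Colours mark the subunit or a paralogue, names are given for the genes chosen by rule, and filled points mark an adjusted p under 0.05. Apart from 3 paralogues on the left, the lowest point is at -0.0049, and the 19 filled points lie between 0.28 and 0.46.

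The same shift was present on each tail-suspension array. The members' median, relative to each gene's mean over the sham arrays, was 0.01, -0.0073 and 0.0086 for sham 1, 2 and 3. For tail-suspension 1, 2 and 3 it was 0.26, 0.16 and 0.25. The sham arrays thus lay within a few hundredths of each other and tail-suspension 2 was the least shifted of its group. On tail-suspension 1, which shared its slide row with the sham arrays, 74 of the 80 genes were above all 3 sham values (92.5%, against 35.5% of all tested probes). The count was 66 on tail-suspension 2 (82.5%, against 37% of all) and 73 on tail-suspension 3 (91.2%, against 35.6%). A fit with the slide row as a block, which rests on tail-suspension 1 alone for the difference within a row, gave a median of 0.26 and 0 members past the adjusted threshold, with 24 higher at an unadjusted p under 0.05.

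**Figure D2:**
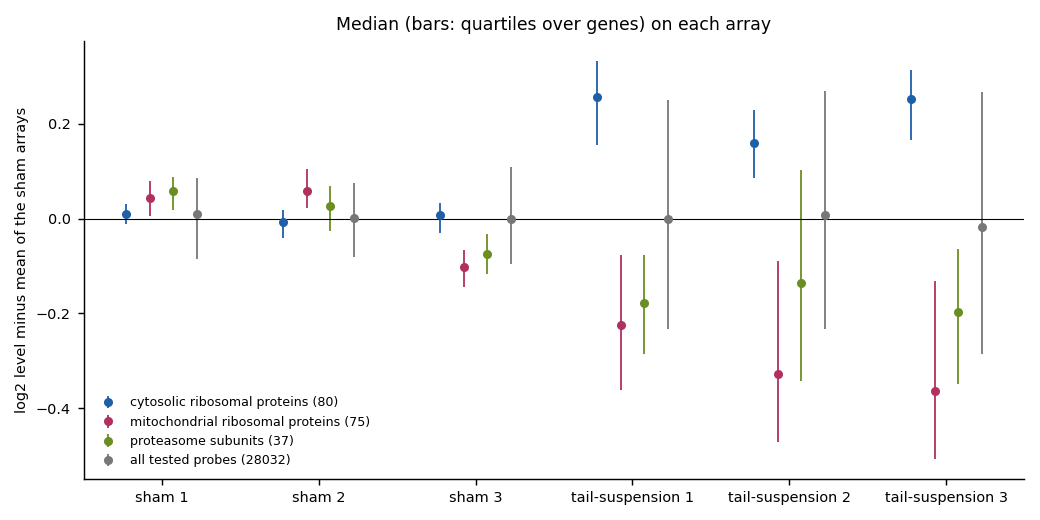
Median log2 level on each array relative to the mean of the sham arrays, with quartiles over genes as bars, for the cytosolic ribosomal proteins, the mitochondrial ribosomal proteins, the proteasome subunits and all tested probes. The cytosolic ribosomal proteins lie at 0.16 to 0.26 on the tail-suspension arrays, the mitochondrial ribosomal proteins at -0.22 to -0.36 and all probes near 0.

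By the chosen probe of each gene, the 4 largest rises that passed the test were in proteins of the small subunit. Rps15, a protein of the head of the small subunit (probe at chr10:79756716-79756775, plus strand, mm9), had log2 levels of 7.15, 7.11 and 7.24 in sham and 7.71, 7.53 and 7.63 in tail-suspension hearts. Every tail-suspension array was above every sham array, and the log2 fold change was 0.46 ± 0.09 (SE, adjusted p = 0.0201). Rps28 had levels of 7.59, 7.54 and 7.62 against 8.07, 7.82 and 8.13. Here the groups were also apart, with tail-suspension 2 the lowest of its group, and the change was 0.43 ± 0.11 (SE, adjusted p = 0.0364).

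Rps9, which takes part in the accuracy of decoding, had levels of 7.56, 7.49 and 7.59 in sham and 7.97, 7.98 and 7.95 in tail-suspension hearts. The 3 tail-suspension arrays lay within a few hundredths of each other and clear of the sham arrays, for a change of 0.42 ± 0.08 (SE, adjusted p = 0.0174). Rps27, a zinc-binding protein of the small subunit, had levels of 7.66, 7.63 and 7.66 against 8.10, 8.05 and 8.04. Its groups did not overlap, its change was 0.41 ± 0.08 (SE), and its adjusted p of 0.0168 was the lowest of the members that rose. All 4 Rps27 probes changed by 0.37 to 0.44. The array places them at chromosome 9 although RefSeq has the gene on chromosome 3, so that RNA of the gene and of a copy at that site cannot be told apart.

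Rps21 rose by 0.37 ± 0.09 (SE, adjusted p = 0.0373) and Rps18 by 0.34 ± 0.09 (SE, adjusted p = 0.0404). Of the 29 tested small-subunit genes without paralogues, 10 rose (34.5%, against 10.8% of all probes), and the median was 0.26. In 25 the tail-suspension arrays lay entirely above the sham arrays, against 22.1% of all probes. Values ran from -0.0049 in Rps2 to 0.46 in Rps15.

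In the large subunit, 8 of 46 genes without paralogues rose (17.4%, against 10.8% of all probes), and the median was 0.21. In 39 the tail-suspension arrays lay entirely above the sham arrays, against 22.1% of all probes. The difference between the subunits was not tested. Rpl39, a small protein that lines the exit tunnel for the growing chain, had levels of 6.08, 6.06 and 6.05 in sham and 6.49, 6.28 and 6.60 in tail-suspension hearts. Its sham arrays were nearly equal, its tail-suspension arrays were spread more widely and all higher, and the change was 0.39 ± 0.11 (SE, adjusted p = 0.0440). Rpl5, which carries the 5S RNA into the large subunit and can bind the p53 regulator Mdm2, had levels of 5.20, 5.17 and 4.98 against 5.52, 5.46 and 5.51. All tail-suspension arrays were above the sham arrays, of which sham 3 was the lowest, and the change was 0.38 ± 0.09 (SE, adjusted p = 0.0354).

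Rpl11, the partner of Rpl5 in 5S RNA binding, had nearly equal levels in both groups by its brightest probe, 8.10, 8.13 and 8.10 in sham and 8.07, 8.13 and 8.13 in tail-suspension hearts. The groups overlapped and the log2 fold change was 0.0036 ± 0.08 (SE, adjusted p = 0.978), while its 2 dimmer probes had values of 0.08 and 0.16 with the groups apart (adjusted p = 0.478 and 0.234). Rpl10a had levels of 7.68, 7.70 and 7.72 against 8.09, 8.03 and 8.10. Its groups were clearly apart, for a change of 0.37 ± 0.08 (SE, adjusted p = 0.0238). Rpl36a changed by 0.35, Rpl27a by 0.35 and Rpl13 by 0.32, with adjusted p-values of 0.0459, 0.0406 and 0.0359.

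The rest of the 19 included Rps6, Rps20, Rpl30 and Rps16, at log2 fold changes of 0.29 to 0.32, and the paralogue Rpl22l1. Rps6 is the protein of the small subunit that S6 kinases phosphorylate downstream of mTORC1. Its levels were 7.07, 7.07 and 7.08 in sham and 7.40, 7.42 and 7.36 in tail-suspension hearts. Neither group varied by more than a few hundredths, and the change was 0.32 ± 0.08 (SE, adjusted p = 0.0324).

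The proteins of the stalk, which recruits translation factors to the large subunit, did not pass the test. Rplp0, its base and a common reference gene in PCR, had levels of 8.63, 8.61 and 8.65 in sham and 8.78, 8.64 and 8.89 in tail-suspension hearts. Tail-suspension 2 fell among the sham arrays, so the groups overlapped, and the log2 fold change was 0.14 ± 0.09 (SE, adjusted p = 0.326). The 2 dimmer Rplp0 probes had larger values, 0.31 (adjusted p = 0.0610) and 0.25 (adjusted p = 0.106), with the groups apart. For Rplp1 the change was 0.19 (adjusted p = 0.212) and the groups overlapped, and for Rplp2 it was 0.15 (adjusted p = 0.241) with the groups apart.

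The 5 members of smallest difference were Rpl29, Rpl11, Rps2, Rpl24 and Rpl35, at log2 fold changes from -0.0049 to 0.07. None passed the test, with adjusted p-values of 0.588 to 0.998, and in all of them the groups overlapped. Over 22 alternative settings the sign turned in 9 for Rpl29, 10 for Rpl11, 7 for Rps2 and 1 each for Rpl24 and Rpl35, so these probes give no firm direction. Other, dimmer probes were tested for some of these genes, and none passed the test: 2 for Rpl11 had values of 0.08 and 0.16, 2 for Rpl24 had values of 0.13 and 0.13, and 1 for Rpl29 had 0.10, each with tail-suspension arrays entirely above sham arrays, while 1 for Rps2 had -0.10 with the arrays entirely below. The chosen probes had SEs of 0.08 to 0.09, no larger than those of the genes that rose. The array places the chosen Rps2 probe on chromosome 17 but far from the annotated start of Rps2, so its value may not be that of the gene.

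The name rule also took in paralogues. Of 7 within the rule on the array, Rpl10l was well above background on no array and Rpl39l on 1 sham and 1 tail-suspension array, so neither was tested. The other 5 had a median log2 fold change of -0.24. The 3 members with a log2 fold change below -0.1 were the paralogues Rpl3l, Rps27l and Rpl7l1. Among the 75 tested members without paralogues the lowest value was -0.0049.

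Rpl3l (probe at chr17:24872413-24872681, plus strand, mm9) had log2 levels of 5.95, 5.65 and 5.72 in sham and 4.97, 5.55 and 4.88 in tail-suspension hearts. All tail-suspension arrays were below the sham arrays, tail-suspension 2 only by little, and the log2 fold change of -0.64 ± 0.19 (SE) did not pass the test (adjusted p = 0.0587). Without tail-suspension 2 it passed, at -0.85 (adjusted p = 0.0114). Rpl3, the general form of this protein near the catalytic centre, had levels of 5.98, 6.25 and 6.20 against 6.86, 6.39 and 6.70. Its groups were apart in the opposite direction, again least in tail-suspension 2, with a change of 0.51 ± 0.15 (SE, adjusted p = 0.0528). A dimmer Rpl3 probe (chr15:79908489-79908772, minus strand, mm9) rose by 0.68 ± 0.17 (SE, adjusted p = 0.0379).

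The sequences of this Rpl3 probe and of the Rpl3l probe are shown because the opposite values rest on the array telling these similar messages apart. They read 5′ to 3′ along the message, both spans on the genome are longer than the 60 bases of the probe, and both leave a reading frame open throughout. Capitals mark the bases that are the same where the probes overlap in an alignment without gaps.
Rpl3: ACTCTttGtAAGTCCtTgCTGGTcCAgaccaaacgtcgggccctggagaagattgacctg
Rpl3l: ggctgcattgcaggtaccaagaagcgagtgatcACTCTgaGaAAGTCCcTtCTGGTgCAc
Of the 27 bases that overlap, 20 were the same (74.1%). This overlap does not tell how far either probe matches the rest of the other message. The ratios below use the chosen, brighter Rpl3 probe, whose sequence is not shown and which shares a run of 30 bases with 1 probe of another name.

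Because both genes of a pair were measured on the same array, the paralogue can be given relative to its partner. The log2 ratio of Rpl3l to Rpl3, set to a mean of 0 in sham, was 0.34, -0.23 and -0.11 in sham and -1.52, -0.47 and -1.45 in tail-suspension hearts. All 3 tail-suspension values were lower, and the mean ratio fell by 1.15 on the log2 scale, to 0.451 of that in sham hearts. For Rps27l, a p53-inducible copy of Rps27, the ratio to Rps27 was 0.02, 0.07 and -0.09 in sham and -0.68, -0.78 and -0.66 in tail-suspension hearts. These groups were far apart beside their spread, and the mean fell by 0.71.

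For Rpl7l1, a copy of Rpl7, the ratio was 0.12, 0.04 and -0.16 against -0.43, -0.30 and -0.55, a difference of -0.42 with no overlap. In exact two-sided permutation tests, each of these 3 ratios had p = 0.1, the smallest that 3 against 3 arrays allow, and an adjusted value of 0.167 over the 5 pairs. Rpl22l1 went the other way from these paralogues: it rose by 0.28 ± 0.08 (SE, adjusted p = 0.0482), from 4.70, 4.79 and 4.78 to 5.07, 5.04 and 5.02, with the groups apart. Its partner Rpl22 had a change of 0.19 (adjusted p = 0.125), and the ratio of the pair differed by 0.09 between the groups with overlapping arrays (exact permutation p = 0.3, adjusted 0.375). The probe named Rps4y2, which RefSeq lists as Rps4l, a transcribed pseudogene, had the widest spread of the 80 tested members (sham SD 0.48, n = 3) and no detectable difference from its partner Rps4x (exact permutation p = 0.8).

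On their own, Rps27l had levels of 5.51, 5.54 and 5.40 in sham and 5.26, 5.10 and 5.21 in tail-suspension hearts. The arrays did not overlap, and the change of -0.30 ± 0.09 (SE) missed the threshold (adjusted p = 0.0604). Rpl7l1 had a change of -0.24 ± 0.10 (SE, adjusted p = 0.146), with sham 3 level with tail-suspension 2.

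**Figure D3:**
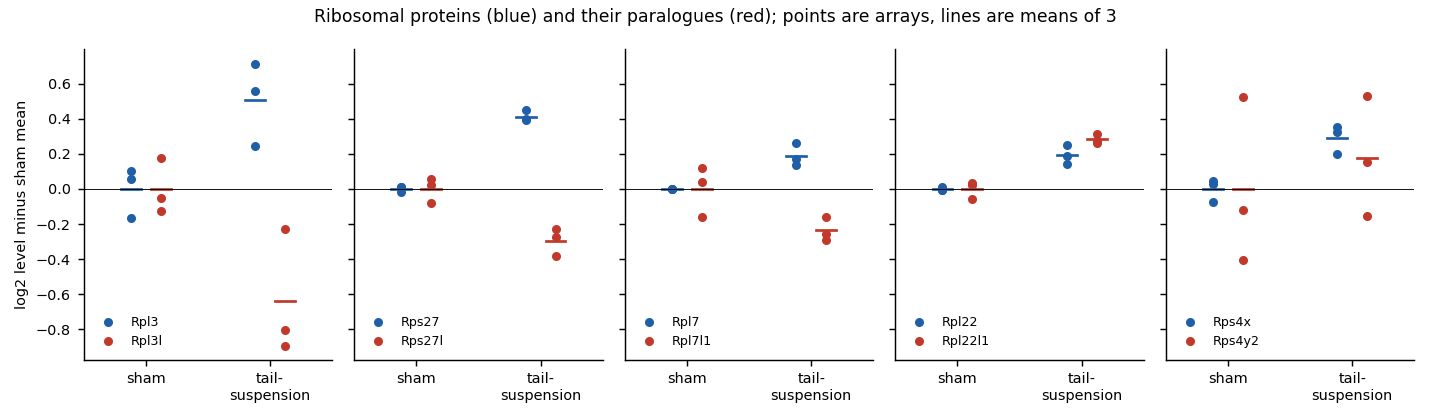
Log2 level of each paralogue (red) and its partner (blue) on each array, relative to the gene's mean over the sham arrays; points are arrays and short lines are means of 3. Rpl3l, Rps27l and Rpl7l1 lie lower and their partners higher in tail-suspension hearts, while Rpl22l1 and Rpl22 both lie higher and Rps4y2 is spread widely in both groups.

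Several further checks bear on single probes. Of the 82 genes, 53 had another tested probe, 94 such probes in all. Of these, 86 had a fold change above 0, 74 had tail-suspension arrays entirely above the sham arrays, 20 rose and 0 fell (2 were lower at an unadjusted p under 0.05), and their median was 0.21. Of all tested probes, 49.5% were above 0, 22.1% had arrays entirely above, 10.8% rose and 9.57% fell. Of the 8 below 0, 7 had a mean log2 intensity under 13. The fold changes of the chosen and the next brightest probe had Pearson r = 0.715 and Spearman rho = 0.707 across 53 genes, which share the same 6 arrays and are not independent. Counting any probe, 29 genes rose, 10 of them by another probe than the chosen one, among which were Rpl12, Rpl23, Rpl3, Rpl35a, Rpl36, Rps12, Rps24, Rps3a and Rps4x. A gene with several probes has more chances to enter this count, so it has no matching share over all probes.

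Ribosomal protein genes have many processed pseudogenes, whose letters are close to those of the message. A run of 30 bases was shared with a probe of another name by 28 of the 82 chosen probes. In these 28 the median log2 fold change was 0.21 with 7 higher. In the 52 tested probes that shared no such run it was 0.22 with 12 higher, and 10.8% of all probes rose. The array placed 79 of the 82 probes on the gene's own RefSeq chromosome, and the 77 of them that were tested had a median of 0.21. Only the chromosome was compared. The chosen Rps2 probe counts among the 79 but is placed at chr17:42864841-42864900 (mm9), far from the annotated Rps2 start (chr17:24720053-24720082, GRCm38.p6).

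Probe brightness was also set beside the shift, since ribosomal protein messages are abundant. Of the tested members, 71 had a mean log2 intensity of 14 or more, with a median log2 fold change of 0.22. The 1446 other probes of that brightness had a median of 0.04, and 13.1% of them rose, against 15 of the 71 members. For the members between 15 and 16, 29 of 29 had tail-suspension arrays entirely above sham arrays, against 42.1% of the other probes in that range. Above 16 the figures were 24 of 34 members and 17% of the others.

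**Figure D4:**
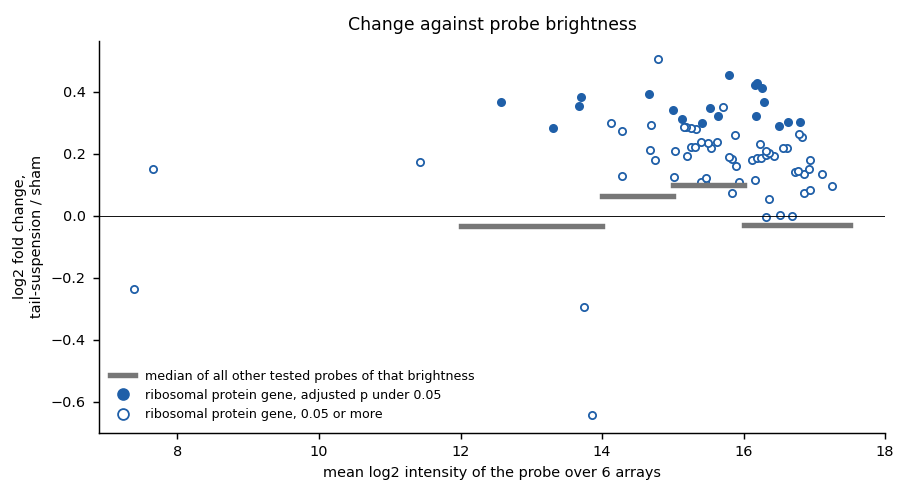
Log2 fold change of each tested ribosomal protein gene against the mean log2 intensity of its probe over the 6 arrays, with filled points for an adjusted p under 0.05; grey bars give the median of all other tested probes of that brightness. Most members lie above the grey bars at all intensities above 12, apart from Rpl3l and Rps27l below 0.

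The pyrimidine run described above can be set beside the values of the tested members with a RefSeq promoter. The 35 with a run had a median log2 fold change of 0.22, and 9 of them rose (25.7%, against 10.8% of all probes). The 24 without one had a median of 0.24, and 6 of them rose. Rpl35, with one of the longest runs shown, had a change of 0.07 (adjusted p = 0.588), while Rps15, without one, had by its chosen probe the largest change of the members that rose.

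Of 5 ribosomal proteins whose names lie outside the rule, 0 passed the limma test (1, Fau, was higher at an unadjusted p under 0.05, and 1, Gnb2l1, in the methods' t-test), and their median was 0.15. Fau, a small-subunit protein made as a fusion with a ubiquitin-like protein, had a change of 0.26 (adjusted p = 0.0738). Rpsa changed by 0.16 (adjusted p = 0.272) and Gnb2l1, the signalling scaffold also called Rack1, by 0.15 (adjusted p = 0.207). The paralogue Rpl36al had a value of -0.13 (adjusted p = 0.333).

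Other messages with a known TOP sequence were also mostly higher. Of 20 tested, 3 rose (15%, near the 10.8% of all probes) and 0 fell, 16 had a value above 0 and the median was 0.21. At an unadjusted p under 0.05 the counts were 10 and 0 (19.3% of all probes were higher), and in the methods' t-test 5 and 0 (5.47% of all probes were higher). Eef2, the elongation factor that moves the ribosome along the message, rose by 0.55 ± 0.09 (SE, adjusted p = 0.0120). Eif4b, which helps unwind messages at the start of translation, rose by 0.60 ± 0.10 (SE, adjusted p = 0.0116), and Eef1a1, which delivers the charged transfer RNA, by 0.35 ± 0.08 (SE, adjusted p = 0.0325). The count that rose was 0 without sham 2 and 2 or 3 without any other array. At the other end Eef1g had a value of -0.15 (adjusted p = 0.236).

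Of 31 tested initiation factors, 2 rose (6.45%, against 10.8% of all probes) and 1 fell (3.23%, against 9.57%). Both shares were below those of all probes, and the median was -0.03. Eif3g and Eif1 rose by 0.47 and 0.44 (adjusted p = 0.0206 and 0.0311), and the cap-binding protein Eif4e fell by 0.57 on the log2 scale (adjusted p = 0.0277).

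RNA polymerase I, which makes the large ribosomal RNAs, and its factors had a median of 0.16 over 14 tested genes. Of these genes 2 rose (14.3%, near the 10.8% of all probes). These were the subunits Polr1b, at 0.38 (adjusted p = 0.0362), and Polr1c, at 0.28 (adjusted p = 0.0479), the second of which also serves RNA polymerase III. With median centring, or with any single array left out, neither passed the test. Among 69 tested ribosome assembly factors, 5 rose (7.25%, against 10.8% of all probes) and 2 fell (2.9%, against 9.57%). Both shares were below those of all probes, and the median was 0.01. Dhx37 (0.51), Sbds (0.47), Las1l (0.46) and Noc2l (0.43) were the highest of those that rose, Sbds being the factor that releases the anti-association factor Eif6 (0.31, also higher) from new large subunits. Pes1, of the complex that matures the large subunit, fell by 0.64 and the nucleolar chaperone Npm3 fell by 0.78.

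Among 27 tested genes of the mTORC1 pathway and of growth control, 7 rose (25.9%, against 10.8% of all probes). In the same list 2 fell (7.41%, against 9.57%), and the median was -0.04. Myc, a transcription factor that promotes ribosome production, had log2 levels of -2.94, -2.81 and -2.91 in sham and -0.89, -1.73 and -1.23 in tail-suspension hearts. The groups were far apart, and Myc rose 3.04-fold (log2 fold change 1.60 ± 0.20, SE, adjusted p = 0.00588). Its relative Mycn had levels of -0.73, -0.68 and -0.30 against -2.98, -2.10 and -3.14. It was lower on all 3 tail-suspension arrays, with a log2 fold change of -2.17 ± 0.28 (SE, adjusted p = 0.00616).

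Inhibitors of translation were among the genes of this list that rose. Eif4ebp1, which binds Eif4e and blocks cap-dependent initiation, rose by 0.91 ± 0.12 (SE, adjusted p = 0.00631), and Eef2k, the kinase that inactivates Eef2, by 0.86 ± 0.13 (SE, adjusted p = 0.00934). Sesn1, a stress-induced inhibitor of mTORC1, rose by 1.06 ± 0.15 (SE, adjusted p = 0.00813). Ddit4l, also known as an inhibitor of mTORC1, changed in the other direction by -1.35 ± 0.16 (SE, adjusted p = 0.00521). Of 9 tested S6 kinase genes 1 fell (11.1%, near the 9.57% of all probes), Rps6ka2 by 0.62 (adjusted p = 0.0125). Rps6kb1, which encodes the main kinase of Rps6, had a value of -0.04 (adjusted p = 0.702).

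**Figure D5:**
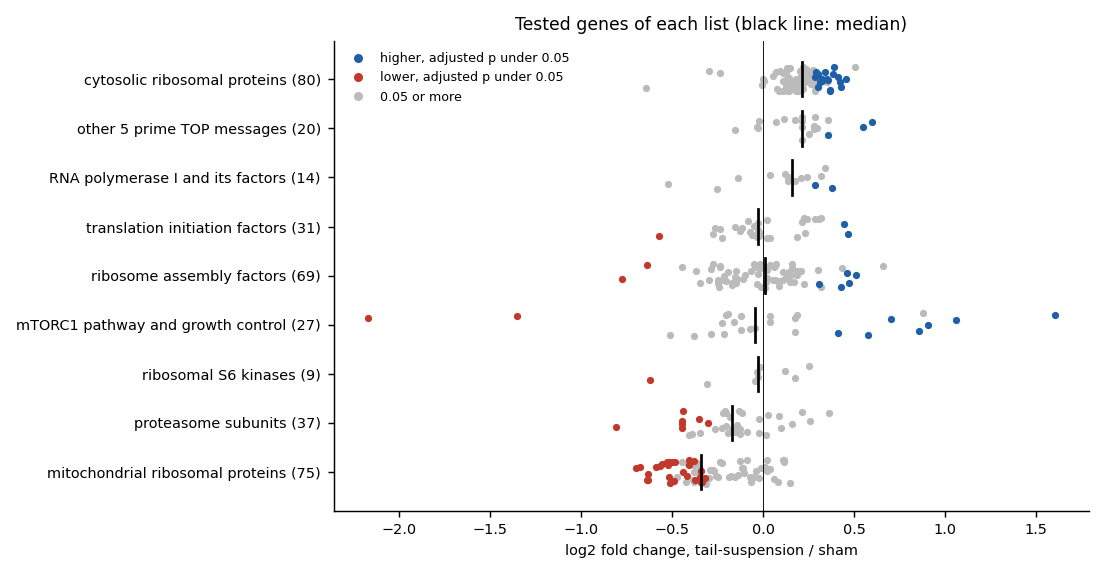
Log2 fold change (tail-suspension over sham) of each tested gene of the cytosolic ribosomal proteins and of 8 other lists, with the number tested in brackets; blue and red points passed an adjusted p of 0.05 and black lines are medians. The cytosolic ribosomal proteins and other TOP messages both have medians of 0.21, and the mitochondrial ribosomal proteins, at -0.34, lie on the other side of 0.

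The ribosome of the mitochondrion has proteins of its own, made from separate genes, and many of these fell. Of 75 tested mitochondrial ribosomal protein genes, 0 rose and 27 fell (36%, against 9.57% of all probes). At an unadjusted p under 0.05 the counts were 0 and 47, and the share of all probes that were lower there is not given. In the methods' t-test they were 0 and 10, where 4.46% of all probes were lower. The limma count was 4 without sham 1, 0 without sham 2, 15 without tail-suspension 1, 17 without tail-suspension 2 and 4 without tail-suspension 3. Of all probes, 3.83%, 2.67%, 5.2%, 9.64% and 3.33% fell in these settings. The count without sham 3 is not reported here. Their median was -0.34, and tail-suspension arrays lay entirely below sham arrays in 51 of the 75, against 21.9% of all probes. At -0.70, -0.68, -0.64 and -0.63, Mrpl46, Mrpl19, Mrps22 and Mrpl3 had the largest falls. On tail-suspension 1, 2 and 3 their median was -0.22, -0.33 and -0.36, where that of the cytosolic ribosomal proteins was 0.26, 0.16 and 0.25. The proteasome, an abundant protein complex of the cytosol and nucleus, had 7 of 37 tested genes lower (18.9%, against 9.57% of all probes) and 0 higher. At an unadjusted p under 0.05 the counts were 11 lower and 2 higher. In the methods' t-test they were 5 and 0 (4.46% of all probes were lower). The median log2 fold change was -0.17. Psmd14, Psma4, Psma5 and Psmb2 had the largest falls there, at -0.81, -0.45, -0.44 and -0.44. The count of proteasome genes that fell was 0 without sham 1, sham 2 or tail-suspension 3, and 2 and 4 without tail-suspension 1 and 2. The shares of all probes are those given above, and the count without sham 3 is again not reported.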

How the data were processed

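Per the labels, total RNA of mouse heart was labelled and hybridised to 1-colour Agilent arrays, and the deposited intensity values (gProcessedSignal, background-subtracted) came from Agilent Feature Extraction 10.7.1.1 with mm9 probe positions. The authors also deposited a matrix of normalized log2 values, used here only as an alternative. No file holds counts, so precision is limited by 3 arrays a group. The members and gene lists were chosen with earlier results of these data known.

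From these values, 59305 non-control spots of 55681 probes were read. The array's 75th percentile was taken over all its non-control spots, flagged ones included. Flagged outlier spots were then left out, this percentile was subtracted from log2 intensities, and the spots of each probe were averaged. At least 50% of a probe's spots had to be marked well above background for it to count so, and the 28032 probes above background on all arrays of at least 1 group were tested. limma 3.58.1 (R 4.3.3; lmFit, eBayes) compared 3 tail-suspension with 3 sham arrays without covariates, with Benjamini-Hochberg adjustment over all tested probes and a threshold of 0.05. The order of groups was counted on the 28003 tested probes with no array missing. No member value was missing or imputed. The scripts were tested on simulated data. Nothing states that the hearts were processed separately, so p-values measure the spread between these samples.

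Genes named individually were the members past the threshold with non-overlapping arrays (up to 12 of largest change), paralogues and partners, Rplp0 to Rplp2, the 5 of smallest change, ribosomal proteins outside the name rule, and up to 4 genes in each direction of each other list; others were named after their values were seen, and values of a few genes are not reported here. All 82 member names matched RefSeq, 2 under another symbol (Rps3a1 and Rps4l). Figures used Python and matplotlib.

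Alternatives covered background correction (normexp, offset 50), quantile and median scaling, 2 other ways to take the 75th percentile, the deposited log2 matrix, filters, outlier spots, the variance model, array weights, the methods' t-test, replicate number and slide row as blocks, choice of probe, a 1.5-fold minimum and each array left out.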

Additional observations from a re-analysis of the deposited data

How the results depend on the processing

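The members' median log2 fold change was above 0 under each of 23 alternatives, from 0.14 to 0.27, with 70 to 77 of the members above 0. It moved by more than the spread between replicates (SD 0.04) with normexp (0.27), quantile normalization (0.16), median scaling (0.14), the deposited log2 matrix (0.15), and with the slide row as a block or tail-suspension 1 against the sham arrays of its row (0.26 each). With arrays left out in turn it ran from 0.20 to 0.25. The count of members that rose depended on the settings far more. It was 8 of 80 with quantile normalization, where 9.74% of all probes rose, and 12 with the deposited log2 matrix (9.83% of all probes). It was 0 with median scaling (6.46%) and 0 with no filter on dim probes. An intensity trend with robust eBayes gave 43 (12.8% of all probes rose there, against 10.8%), and array weights gave 38 (15.9%). The row as a block gave 0 (1.14%), and so did a minimum of 1.5-fold. In an alternative chosen after seeing the data, the 75th percentile over 1 value per probe gave 12 (10.3%). The count was thus near the share of all probes with quantile normalization and below it with median scaling. Without single arrays it ran from 0 to 16, where 3.6% to 10.3% of all probes rose. Where limma gave 0 without a fold minimum, 8 to 34 members were higher at an unadjusted p under 0.05, and without a filter only 1.87% of 55681 probes were called higher. The count that fell was 1 with normexp, 1 with median scaling and 1 without tail-suspension replicate 2 (Rpl3l), 1 with quantile normalization and 1 with the deposited matrix (Rps27l), 2 with trend and robust eBayes and 3 with array weights (Rpl3l and Rps27l, then also Rpl7l1). In these settings 9.4% to 15.5% of all probes fell. Leaving out arrays gave 0 to 1, where 2.67% to 9.64% of all probes fell.

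Same-numbered arrays had deviations correlated at -0.02, -0.0176 and 0.0495. No pairing by replicate number was thus seen, though 3 arrays a group cannot exclude one. With the replicate block 0 members rose (30 at an unadjusted p under 0.05) and 0 fell, where 6.11% and 5% of all probes did.

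No named gene past the threshold in either fit changed sign. Of 660 gene-and-setting values of the 30 named members, 140 lost the threshold and 25 passed it anew. The count of mitochondrial ribosomal proteins that fell was 0 without sham replicate 2 (2.67% of all probes fell) and with the row block (0.631%). It was highest, at 41, with trend and robust eBayes (11.9%). Causes were not tested. The dim Rpl7l1 probe and the spread of Rps4y2 limit what can be said of these paralogues.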

Other observations

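The array also carries 15 probes named as pseudogenes of ribosomal proteins, of which 14 were tested. Of these, 6 rose (42.9%, against 10.8% of all probes) and 0 fell (9.57% of all probes). At an unadjusted p under 0.05, 11 were higher and 0 lower (19.3% of all probes were higher). The methods' t-test gave 6 and 0 (5.47% of all probes were higher). A fold change above 0 was seen in 13 (49.5% of all probes), and the median log2 fold change was 0.30. The highest was Rps24-ps2, at log2 levels of 4.96, 4.86 and 4.73 in sham and 5.42, 5.25 and 5.42 in tail-suspension hearts, a change of 0.52 ± 0.10 (SE, limma adjusted p = 0.0196). Rpl12-ps1 rose by 0.45 (adjusted p = 0.0282), and the Rpl21-ps4 and Rpl21-ps5 probes by 0.39 and 0.37 (adjusted p = 0.0320 and 0.0314). The chosen probe named Rpl21 itself, at a log2 fold change of 0.15 (adjusted p = 0.247), did not pass the test. It was dim, with a mean log2 intensity of 7.65, where 71 tested members had 14 or more, and the other Rpl21 probe was dimmer still (6.23). These 2 probes are thus a weak basis for comparing Rpl21 with its pseudogenes. The 1 value below 0 was that of Rpl10a-ps2, at -0.44 (adjusted p = 0.171), which was well above background on 2 of 3 tail-suspension arrays. RNA from a pseudogene and from its parent gene cannot be told apart by these probes.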
